A study of Homo sapiens with 15 samples.

Results

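The genes described here are 8 genes of the red cell: GYPB, GYPE and GYPC (glycophorins), RHAG, ANK1, SLC4A1 and EPB42 of the membrane, and AHSP, a chaperone of haemoglobin. They were picked by name from the 60649 genes of the count table. The samples were K562 cells, an established human line from chronic myeloid leukaemia with the BCR-ABL fusion, which makes embryonic and foetal haemoglobins. One group was untreated (0 µM, with no vehicle named in the labels), and 4 groups had received martinostat, an inhibitor of histone deacetylases, at 0.15, 0.25, 0.5 or 1 µM for 24 h. Each group had 3 libraries of poly(A) RNA, labelled as biological replicates, 15 in all. All came from this 1 line, and p-values measure the spread between those libraries.

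The red cell membrane is a lipid bilayer held by a mesh of spectrin and actin. Ankyrin (ANK1) ties spectrin to the anion exchanger band 3 (SLC4A1), protein 4.2 (EPB42) steadies that link, and the Rh-associated glycoprotein (RHAG) and glycophorin B (GYPB) sit in the same group of proteins. Glycophorin C (GYPC) forms a separate anchor, through protein 4.1, at the junctions where spectrin meets actin. GYPE is a near copy of GYPB whose protein is little known, and AHSP holds free alpha-globin in a soluble form until it pairs. Most of these genes are switched on during erythroid maturation, of which K562 cells retain a part.

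Positions are those of hg38 (GENCODE 44). GYPB (ENSG00000250361.9) is at chr4:143996104-144019380 and GYPE (ENSG00000197465.14) at chr4:143870864-143905563, both on the minus strand. GYPC (ENSG00000136732.16) is at chr2:126656133-126696667 on the plus strand and RHAG (ENSG00000112077.17) at chr6:49605175-49636839 on the minus strand. SLC4A1 (ENSG00000004939.16) is at chr17:44248390-44268141 and EPB42 (ENSG00000166947.15) at chr15:43197227-43221018, both on the minus strand. AHSP (ENSG00000169877.10) is at chr16:31527900-31528803 on the plus strand, and the identifier of ANK1 is ENSG00000029534.21. Counts were made per gene. Of the exon bases, 7.9% in GYPB and 7.5% in ANK1 lay under an exon of the opposite strand, and 15.2% in EPB42 under another gene of the same strand, so part of the reads of these 3 genes may be uncertain. Of all 100-base windows of the annotated transcripts, 4.1% in GYPB, 11.1% in EPB42 and 0.1% in RHAG also occurred in another gene, and none in the other 5 genes.

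Promoter sequences from RefSeq (GRCh38.p14) covered GYPB, GYPC, GYPE, RHAG and EPB42. No entry was used for ANK1, SLC4A1 or AHSP. Of these, 4 are shown from 250 bases before the start to 10 bases after it, because the near-identical GYPB and GYPE moved together in the libraries, RHAG moved with them and GYPC did not. Capitals mark AGATAA or TGATAA on either strand, which are among the words bound by GATA factors. AGATAG and TGATAG, which GATA factors also bind, were neither marked nor counted. GYPC as shown holds ctatct, the opposite strand of AGATAG. GYPB and GYPE hold ctatca, the opposite strand of TGATAG.
GYPB (chr4:144019371-144019630, minus strand): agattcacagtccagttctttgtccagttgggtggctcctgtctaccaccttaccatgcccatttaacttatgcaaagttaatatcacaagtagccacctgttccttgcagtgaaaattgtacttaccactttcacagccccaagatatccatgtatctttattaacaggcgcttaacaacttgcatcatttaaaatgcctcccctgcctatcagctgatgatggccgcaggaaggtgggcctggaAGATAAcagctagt
GYPE (chr4:143905550-143905809, minus strand): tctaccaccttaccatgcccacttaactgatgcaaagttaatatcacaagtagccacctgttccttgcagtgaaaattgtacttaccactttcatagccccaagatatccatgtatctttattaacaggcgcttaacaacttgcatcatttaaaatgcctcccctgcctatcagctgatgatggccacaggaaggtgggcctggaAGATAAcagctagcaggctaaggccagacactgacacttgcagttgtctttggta
RHAG (chr6:49636830-49637089, minus strand): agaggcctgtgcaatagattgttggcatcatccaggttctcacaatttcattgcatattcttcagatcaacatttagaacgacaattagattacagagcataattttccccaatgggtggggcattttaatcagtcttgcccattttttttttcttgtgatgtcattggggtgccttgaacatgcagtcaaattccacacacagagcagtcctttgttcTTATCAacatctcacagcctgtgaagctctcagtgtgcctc
GYPC (chr2:126655908-126656167, plus strand): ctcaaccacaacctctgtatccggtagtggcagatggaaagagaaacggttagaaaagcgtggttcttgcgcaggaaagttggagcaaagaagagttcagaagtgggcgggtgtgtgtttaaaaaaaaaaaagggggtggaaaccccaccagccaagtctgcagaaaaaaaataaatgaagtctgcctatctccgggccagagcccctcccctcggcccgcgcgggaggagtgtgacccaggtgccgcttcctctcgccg

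AGATAA began 4 bases upstream of the start in the GYPB entry shown, 39 bases upstream in a second GYPB entry with a later start, and 45 bases upstream in GYPE, and the opposite strand of TGATAA began 31 bases upstream in RHAG. EPB42 had AGATAA at 208 and 61 bases upstream, and GYPC had neither AGATAA nor TGATAA, the only GATA words searched. Of 35116 promoters of the same 300 bases (250 before and 50 after the start), 10.3% held AGATAA, 7.5% TGATAA and 16.3% either, so a match alone is common. Aligned on AGATAA, GYPE and GYPB were identical at 254 of 259 bases (98.1%). GYPC had 18 CpG in its 300 bases, against 2 in GYPB and GYPE and 1 in RHAG and EPB42, where 44.5% of all promoters had at least 18 and 18.2% at most 2. These matches are descriptions of letters and not of binding.

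Library totals were 23755510 to 32805574 counts, and all 8 genes passed the filter on low counts, among 23711 genes tested. Values are CPM, counts scaled to library size, after TMM scaling by edgeR, which sets libraries to a common scale, and a gene was called at an adjusted p (Benjamini-Hochberg over all tested genes) under 0.05 in edgeR's quasi-likelihood test. The third libraries at 0.25 and 0.5 µM stood apart, at 70.1 and 75.3 on the third principal component against 16.0 or lower in the other libraries, with scaling factors of 1.28 and 1.22. Scaling also mattered for all genes: the median log2 fold change against untreated was 0.28 to 0.34, and scaling by library totals raised it by 0.35 to 0.53. Of the calls at 0.15 µM, 62.2% were higher with TMM scaling and 81.9% with library totals, and at 1 µM 58.5% and 69.3%. Erythroid markers summed to 3015 to 3361 CPM in untreated libraries and to 554 to 680 CPM at 1 µM, where all 6 of them were called lower, among them KLF1 and HEMGN. Megakaryocyte markers rose from 4.74 to 5.14 CPM to 32.3 to 35.8 CPM in sum (ITGA2B and ITGB3, the 2 tested of 5, both higher; 3 of the 5 at 0 untreated and 1 at 1 µM). The stroma sum rose from 21.9 to 25.4 CPM to 301 to 486 CPM (of 3 tested, COL1A1 was called higher and COL1A2 lower, at -0.96). The monocyte and granulocyte sum was 15.5 to 17.3 CPM untreated and 15.4 to 21.4 CPM at 1 µM (3 called higher and 1 lower of 4 tested), and the lymphoid sum was 2.82 to 5.24 CPM and 9.26 to 10.4 CPM (1 called higher of 3 tested). The part of these markers in the results was not tested, and in bulk RNA fewer cells of a type cannot be told apart from less RNA per cell.

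At 0.5 and 1 µM, 6 of the 8 genes were called lower and none higher. Across all tested genes 27.6% were lower and 39.4% higher at 0.5 µM, and 27.5% lower and 38.8% higher at 1 µM. The median log2 fold change of the 8 genes was -4.13 at 0.5 µM and -4.12 at 1 µM, against 0.34 and 0.32 over all genes. The 6 were GYPB, GYPE, GYPC, RHAG, ANK1 and AHSP, while SLC4A1 and EPB42 were not called at these doses. The lower doses divided the same genes: at 0.15 µM, 1 gene was called lower (GYPC) and 1 higher (SLC4A1), where 19.4% of all genes were lower and 31.9% higher. At 0.25 µM, 4 were lower (GYPC, AHSP, ANK1 and RHAG) and 1 higher (SLC4A1), against 24.8% and 37.4% of all genes. The medians of the 8 genes at these doses were -0.00 and -0.46, against 0.28 and 0.32 over all genes.

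**Figure D1:**
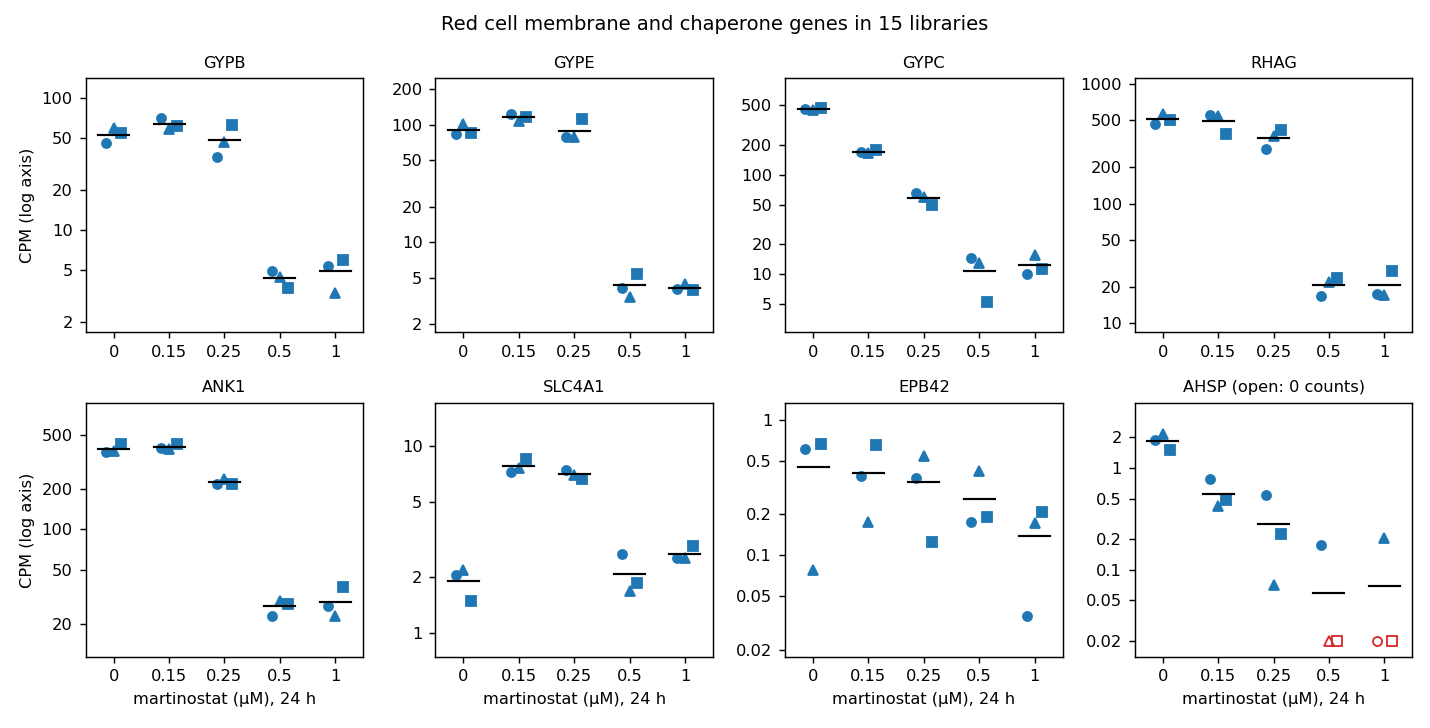
CPM (log axis) of each of the 8 genes in the 15 libraries by dose of martinostat in µM; circles, triangles and squares are replicates 1, 2 and 3, black lines are group means, and open red symbols are libraries with 0 counts. GYPC steps down from the lowest dose, GYPB, GYPE, RHAG and ANK1 drop between 0.25 and 0.5 µM, and SLC4A1 is highest at 0.15 and 0.25 µM.

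GYPC fell at every dose. Untreated libraries had 458, 445 and 466 CPM, those at 0.15 µM 171, 165 and 176 CPM, and those at 0.25 µM 65.1, 59.2 and 49.1 CPM. At 0.5 µM the values were 14.5, 12.8 and 5.19 CPM, and at 1 µM 9.97, 15.7 and 11.1 CPM. No 2 groups overlapped except 0.5 and 1 µM, and the third library at 0.5 µM, 1 of the 2 that stood apart, was the lowest of all. The log2 fold change against untreated was -1.42 (edgeR adjusted p 0.000213, SE 0.26) at 0.15 µM, -2.98 (adjusted p 7.21e-08, SE 0.27) at 0.25 µM, -5.41 (adjusted p 1.16e-10, SE 0.31) at 0.5 µM and -5.21 (adjusted p 1.57e-10, SE 0.31) at 1 µM, the last being 37.1-fold lower. All alternative settings kept these 4 calls. GYPC, which carries the Gerbich antigens, was the one glycophorin of the 3 called lower at 0.15 and 0.25 µM.

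GYPB and GYPE, the neighbouring copies on chromosome 4, held their level to 0.25 µM and were low from 0.5 µM. GYPB, the carrier of the S and s antigens, had 45.5, 59.4 and 54.7 CPM untreated, 70.9, 58.5 and 61.2 CPM at 0.15 µM, 35.7, 46.9 and 62.8 CPM at 0.25 µM, 4.90, 4.43 and 3.64 CPM at 0.5 µM and 5.36, 3.35 and 5.93 CPM at 1 µM. GYPE had 83.5, 102 and 84.9 CPM untreated, 124, 107 and 116 CPM at 0.15 µM, 77.9, 78.9 and 111 CPM at 0.25 µM, 4.11, 3.43 and 5.41 CPM at 0.5 µM and 3.97, 4.39 and 3.94 CPM at 1 µM. For both genes all libraries at 0.5 and 1 µM lay below all others, and at 0.25 µM the third library, which stood apart, was the highest. GYPE changed by -4.37 (edgeR adjusted p 9.76e-13, SE 0.19) at 0.5 µM and by -4.46 (adjusted p 8.29e-13, SE 0.20) at 1 µM on the log2 scale. GYPB changed by -3.63 (edgeR adjusted p 1.33e-10, SE 0.23) and -3.45 (adjusted p 2.14e-10, SE 0.23), or 12.3-fold and 10.9-fold lower.

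At 0.15 µM, GYPE lay above the untreated libraries in all 3 libraries, with a log2 fold change of 0.36 (edgeR adjusted p 0.0747, SE 0.16), which missed the threshold. It was called higher in 9 of 27 alternatives, among them library totals (0.72) and leaving out the third library at 0.25 µM (0.37) or at 0.5 µM (0.36). GYPB at 0.15 µM was 0.26 (edgeR adjusted p 0.312, SE 0.20). It was called higher in 3 of 27 alternatives: library totals (0.62), TMM factors taken from genes of at least 10 CPM (0.52) and limma on log2(FPKM + 1) (0.43). At 0.25 µM the fits gave -0.01 (edgeR adjusted p 0.948, SE 0.16) for GYPE and -0.13 (adjusted p 0.59, SE 0.20) for GYPB.

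RHAG, a channel-like protein for ammonia and carbon dioxide that the Rh antigens need to reach the surface, had 459, 555 and 503 CPM untreated, 552, 538 and 378 CPM at 0.15 µM and 285, 367 and 415 CPM at 0.25 µM. At 0.5 µM it had 16.8, 22.0 and 24.0 CPM and at 1 µM 17.5, 17.3 and 27.1 CPM. Every library at the 2 upper doses lay below every library at the other doses. The log2 fold change was -4.59 (edgeR adjusted p 6.11e-12, SE 0.24) at 0.5 µM and -4.61 (adjusted p 5.87e-12, SE 0.24) at 1 µM. At 0.25 µM the libraries lay below all untreated ones, with a log2 fold change of -0.51 (edgeR adjusted p 0.0360, SE 0.20). That call was lost in 11 of 27 alternatives: without untreated replicate 2 (-0.44) or 3 (-0.52), without replicate 1 (-0.38) or 2 (-0.54) at 0.25 µM, and under several scalings, with 0.03 for library totals.

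ANK1 began to fall at 0.25 µM. It had 376, 383 and 430 CPM untreated, 398, 395 and 431 CPM at 0.15 µM, 217, 235 and 217 CPM at 0.25 µM, 22.9, 29.6 and 27.9 CPM at 0.5 µM and 26.8, 22.7 and 37.3 CPM at 1 µM. The untreated and 0.15 µM libraries overlapped, those at 0.25 µM lay between them and the rest, and those at 0.5 and 1 µM overlapped. The log2 fold change was 0.04 (edgeR adjusted p 0.842, SE 0.16) at 0.15 µM, -0.83 (adjusted p 0.000235, SE 0.16) at 0.25 µM, -3.88 (adjusted p 2.08e-12, SE 0.18) at 0.5 µM and -3.78 (adjusted p 2.80e-12, SE 0.18) at 1 µM. The call at 0.25 µM was lost with library totals (-0.30) and with limma on log2(FPKM + 0.1) (-0.28).

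SLC4A1, the band 3 gene whose protein swaps chloride for bicarbonate, went the other way at the 2 lower doses. It had 2.04, 2.16 and 1.49 CPM untreated, 7.28, 7.63 and 8.50 CPM at 0.15 µM, 7.46, 7.01 and 6.69 CPM at 0.25 µM, 2.65, 1.67 and 1.85 CPM at 0.5 µM and 2.52, 2.52 and 2.93 CPM at 1 µM. All 6 libraries at 0.15 and 0.25 µM lay above all others, and those at 0.5 µM overlapped the untreated ones. The log2 fold change was 2.04 (edgeR adjusted p 9.34e-07, SE 0.24) at 0.15 µM and 1.89 (adjusted p 1.32e-06, SE 0.24) at 0.25 µM. At 0.5 µM it was 0.11 (edgeR adjusted p 0.705, SE 0.24). At 1 µM all 3 libraries lay above the untreated ones and the log2 fold change was 0.48 (edgeR adjusted p 0.0808, SE 0.24), a value that was called in 5 of 27 alternatives. The counts behind SLC4A1 were 38 to 56 per untreated library and 196 to 267 per library at 0.15 and 0.25 µM.

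AHSP was near the lower edge of what these libraries can show. It had 46, 56 and 38 counts untreated, 22, 12 and 14 at 0.15 µM, 16, 2 and 9 at 0.25 µM, 4, 0 and 0 at 0.5 µM and 0, 6 and 0 at 1 µM. In CPM the untreated libraries had 1.88, 2.16 and 1.49, above all 12 treated libraries, of which the highest had 0.773. The log2 fold change was -1.71 (edgeR adjusted p 0.0649, SE 0.75) at 0.15 µM, called in 8 of 26 alternatives, and -2.70 (adjusted p 0.00649, SE 0.80) at 0.25 µM. At 0.5 and 1 µM it was -5.08 (edgeR adjusted p 0.000227, SE 1.04) and -4.64 (adjusted p 0.000307, SE 0.97). All counts at 0.5 µM came from replicate 1 and all at 1 µM from replicate 2. The other 2 libraries of each of these groups held 0 counts, so the size of the fall there is uncertain. Without replicate 1 at 0.25 µM the value there was -3.54.

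EPB42 was hardly detected. Library counts were 15, 2 and 17 untreated, 11, 5 and 19 at 0.15 µM, 11, 15 and 5 at 0.25 µM, 4, 10 and 7 at 0.5 µM and 1, 5 and 6 at 1 µM. All the treated groups overlapped the untreated one, and EPB42 was the 1 member not called in the test over all 5 groups (adjusted p 0.387 by edgeR), in which 7 of 8 were called against 73.6% of all genes. At 1 µM the log2 fold change was -1.66 (edgeR adjusted p 0.0881, SE 0.85), and leaving out untreated replicate 2, the library with 2 counts, gave -2.16, past the threshold. A difference of this size was not firmly detectable at this depth.

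**Figure D2:**
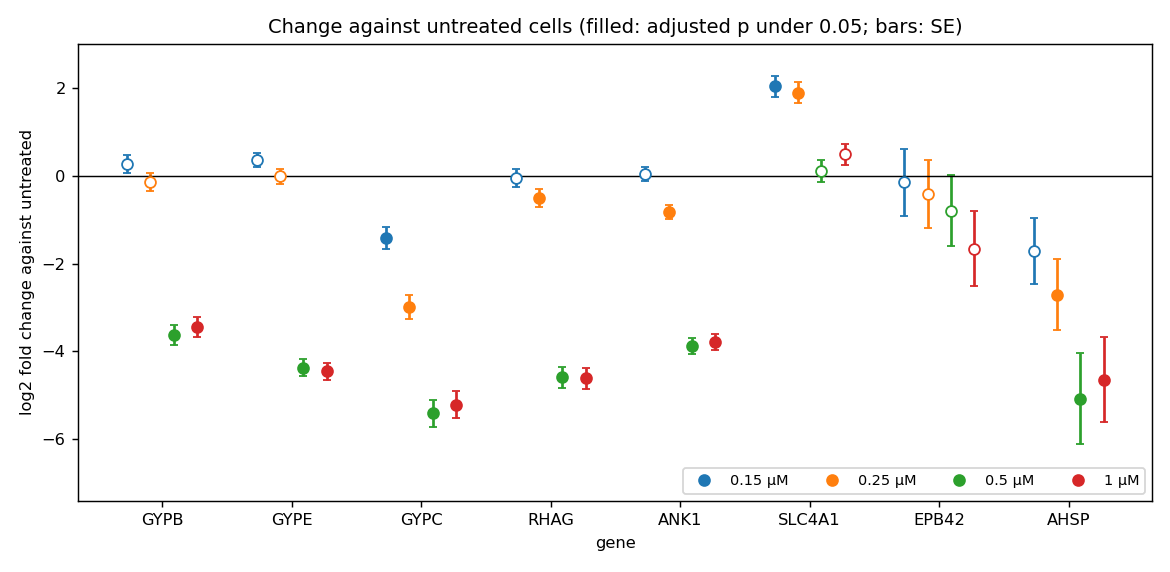
Log2 fold change against untreated cells (vertical axis) of the 8 genes (horizontal axis) at the 4 doses, with bars of 1 SE; filled points passed an adjusted p under 0.05 in edgeR's test. GYPC is filled at all 4 doses, SLC4A1 above 0 at 2 doses, and EPB42 at none. The 4 comparisons share the untreated libraries.

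On the log2 scale, GYPE, RHAG, GYPB and ANK1 had most of their loss between 0.25 and 0.5 µM, while GYPC fell at each step up to 0.5 µM. From 0.15 to 0.25 µM, 2 of the 8 genes were called lower, GYPC by -1.56 (edgeR adjusted p 0.00116, SE 0.26) and ANK1 by -0.87 (adjusted p 0.00199, SE 0.16), against 7.32% of all genes. Without replicate 3 at 0.25 µM and replicate 3 at 0.5 µM, 5 were called lower, GYPB (-0.60), GYPE (-0.54) and RHAG (-0.56) besides. In that fit 2124 of all 24200 genes tested were lower. From 0.25 to 0.5 µM, 6 were lower, against 16.0% of all genes: GYPE by -4.36 (SE 0.19), RHAG by -4.09 (SE 0.23), GYPB by -3.49 (SE 0.23), ANK1 by -3.06 (SE 0.18), GYPC by -2.43 (SE 0.27) and SLC4A1 by -1.78 (SE 0.23). AHSP gave -2.37 at that step (edgeR adjusted p 0.116, SE 1.15). Without replicate 1 at 0.5 µM, which held all its counts in that group, AHSP was called there.

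From 0.5 to 1 µM none of the 8 genes was called, and neither was any of the 23711 tested (percentage called 0) by edgeR, with 372 at an unadjusted p under 0.05. Without replicate 3 at 0.5 µM that number was 1126. Without replicate 3 at both 0.25 and 0.5 µM it was 1640 of 24200, again with 0 called. The absence of calls does not show that the levels at these doses were equal. DESeq2 called 0 and limma 1 on log2(FPKM + 1) and 0 on log2(FPKM + 0.1). The members ranged from -0.87 to 0.44 on the log2 scale, and among the 5 with the most counts, from -0.09 (GYPE, SE 0.19) to 0.19 (GYPC, SE 0.27). Between 0.15 and 1 µM, 7 of the 8 were lower, EPB42 excepted, against 23.1% of all genes. SLC4A1 was among them, at -1.55 (edgeR adjusted p 1.97e-05, SE 0.23), and so was AHSP at -2.93 (adjusted p 0.0212, SE 1.01). The AHSP call was lost without replicate 1 at 0.15 µM (-2.63), or without replicate 1 or 3 at 1 µM (-2.38 each).

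Levels were compared between genes as CPM per kilobase of exon. Untreated cells had 192 ± 18.2 (SD, n = 3) for RHAG, 126 ± 2.96 for GYPC, 44.9 ± 5.12 for GYPE, 36.0 ± 2.67 for ANK1 and 27.9 ± 3.71 for GYPB. AHSP followed at 3.51 ± 0.645, SLC4A1 at 0.370 ± 0.0704 and EPB42 at 0.154 ± 0.111. Each neighbour in that order differed from the next by more than the larger of the 2 SDs, with no test run. At 1 µM the order was RHAG at 7.86 ± 2.13, GYPC at 3.40 ± 0.842, ANK1 at 2.63 ± 0.686, GYPB at 2.56 ± 0.71 and GYPE at 2.04 ± 0.124. SLC4A1 followed at 0.518 ± 0.046, AHSP at 0.131 ± 0.227 and EPB42 at 0.0475 ± 0.0312. Neighbours from GYPC to GYPE, and AHSP and EPB42, differed by less than the larger SD. SLC4A1, band 3, the most abundant protein of the mature red cell membrane, was thus low in these cells at every dose.

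Ratios of counts within a library need no scaling. They were chosen after the values were seen and carry no test. GYPC to RHAG was 0.996, 0.801 and 0.925 untreated, 0.309, 0.307 and 0.466 at 0.15 µM and 0.228, 0.161 and 0.118 at 0.25 µM. It then spread over 0.864, 0.582 and 0.217 at 0.5 µM and 0.569, 0.906 and 0.410 at 1 µM, so GYPC lost ground to RHAG at the lower doses first. ANK1 to RHAG was 0.689 to 0.853 untreated and 1.31 to 1.53 at 1 µM, and SLC4A1 to RHAG was 0.00295 to 0.00445 untreated and 0.108 to 0.145 at 1 µM. GYPE to GYPB was 1.55 to 1.84 untreated, 1.68 to 2.18 at 0.25 µM and 0.665 to 1.31 at 1 µM.

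**Figure D3:**
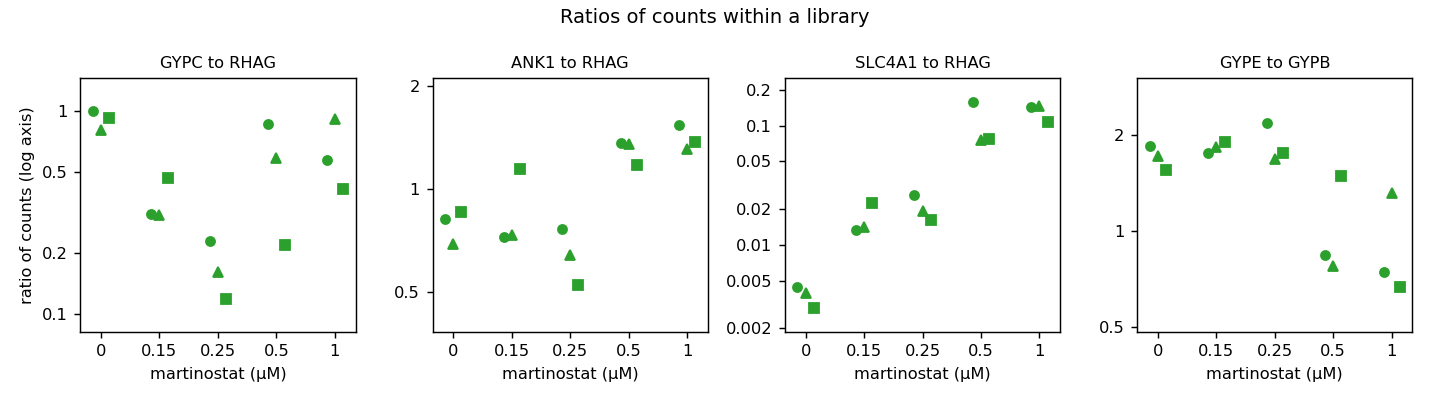
Ratio of the counts of 2 genes within each library (log axis) by dose in µM; circles, triangles and squares are replicates 1, 2 and 3. GYPC to RHAG is lowest at 0.25 µM, 0.118 to 0.228, and SLC4A1 to RHAG is highest at the 2 upper doses.

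Other genes of the red cell membrane were read from lists chosen by name, described by counts only, and the share of all tested genes called higher was 31.9% at 0.15 µM and 38.8% at 1 µM, with 19.4% and 27.5% called lower. Of 10 genes of the membrane skeleton, all tested, 6 were lower and 1 higher at 0.15 µM and 9 lower and 0 higher at 1 µM. SPTB, the beta spectrin that ankyrin binds, was at -1.39 (SE 0.17) at 1 µM and EPB41, protein 4.1, the partner of GYPC, at -0.38 (SE 0.15). ADD3, an adducin that caps actin, was at -0.29 (adjusted p 0.176 by edgeR), the value nearest 0. DMTN, which bundles actin, was at 1.35 at 0.15 µM and -1.79 at 1 µM. Of 20 transport and blood group genes 18 were tested, with 5 higher and 1 lower at 0.15 µM and 3 higher and 12 lower at 1 µM, from -4.46 for ART4, the carrier of the Dombrock antigens, to 2.96 for BCAM, the Lutheran glycoprotein. RHD and RHCE, which encode the Rh antigens, are the nearest relatives of RHAG in the red cell and are near copies of each other between which reads can be split, were at 0.26 and 0.14 at 0.15 µM, neither called, and at -2.99 (SE 0.18) and -1.75 (SE 0.13) at 1 µM. CD47 in the same complex was at -0.45 (SE 0.14).

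Of the 3 globin chains that AHSP can meet, HBZ, the embryonic alpha-like chain, which is also on the erythroid marker list, was at -3.64 (SE 0.51) at 1 µM and HBA1 at -1.72 (SE 0.46), both called, while HBA2 was at 0.07 (adjusted p 0.851 by edgeR). HBA1 and HBA2 are near-identical copies between which reads can be split. Of 11 homologues in other tissues 8 were tested. They had 5 higher and none lower at 0.15 µM, and 2 higher and 3 lower at 1 µM, against 38.8% and 27.5% of all genes there. RHBG, the relative of RHAG in kidney, was at 5.43 (SE 0.85) and SLC4A3, an anion exchanger of heart and brain, at 3.36 (SE 0.32) at 1 µM. RHBG had only 2 counts in all over the untreated libraries and 113 at 1 µM, so the size of its rise is uncertain. SLC4A2 was at -1.17 and SLC4A7 at -1.29. ANK2 was at 1.54 at 0.15 µM and -1.30 at 1 µM, and ANK3 at 0.09 at 1 µM (adjusted p 0.797 by edgeR).

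**Figure D4:**
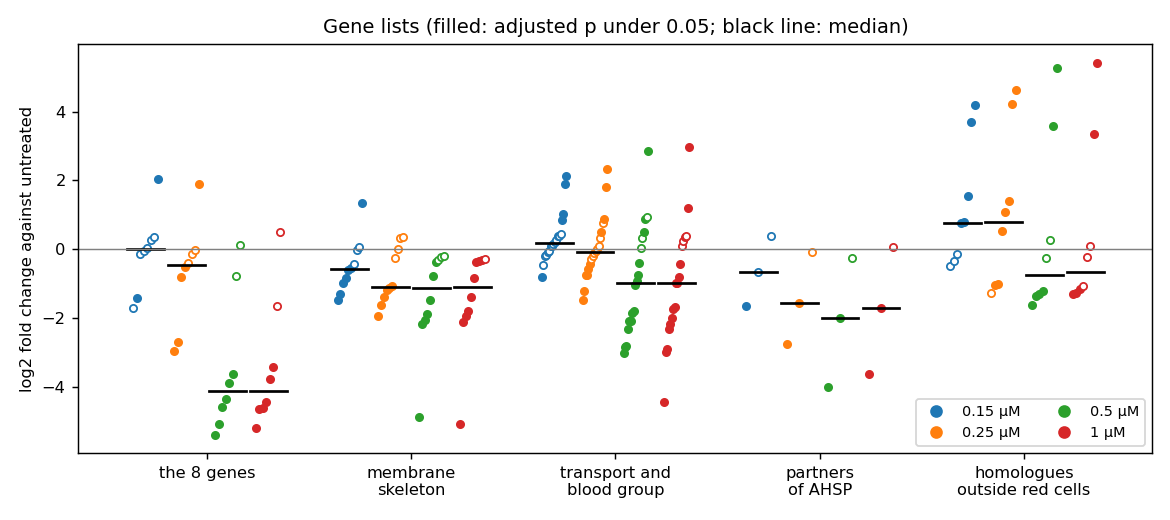
Log2 fold change against untreated (vertical axis) of the 8 genes and of 4 lists of related genes at the 4 doses (colours); filled points passed an adjusted p under 0.05 and black lines are medians. The median of the 8 genes is -4.12 at 1 µM and that of the membrane skeleton -1.11.

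As a description over the 15 libraries, which share their scaling and fall into dose groups, Pearson's r of log2(CPM + 0.5) among GYPB, GYPE, ANK1 and RHAG was 0.981 to 0.991. GYPC reached 0.875 to 0.929 with them and SLC4A1 0.493 to 0.583, and 0.221 with GYPC. Of 10122 candidate genes averaging 10 CPM or more, the nearest to GYPB were NOSTRIN (0.992) and HEPH (0.991), to GYPE NOSTRIN (0.997) and MS4A4A (0.995) and to GYPC LRRC41 (0.996) and DPH2 (0.996). ANK1 was nearest to NDST1 (0.997) and FAM83A (0.996), and SLC4A1 to ALDH1A1 (0.979) and SLC11A1 (0.978). MLLT11 (0.996) was near RHAG.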

How the data were processed

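Martinostat-treated and untreated K562 cells gave 15 libraries of poly(A) RNA, made with a directional kit. Per the labels and the study's methods, the authors trimmed reads with Trim Galore 0.6.10 and Trimmomatic, aligned them to hg38 with HISAT2 2.2.1 and SAMtools 1.21, and counted them per GENCODE 38 gene with featureCounts 1.5.3. The strand setting was not given in the sources used here. The deposited count table held whole-number counts of 60649 genes, not normalised. The deposited FPKM tables, computed by the authors, divided by the genomic span of each gene, introns included, so FPKM served only as an alternative.

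Counts were tested with edgeR 4.0.16 (R 4.3.3): TMM factors, filterByExpr, robust quasi-likelihood fits of all 15 libraries with a common spread, and Benjamini-Hochberg adjustment over 23711 genes, with no covariate. The same-group libraries were treated as replicates. Alternatives used DESeq2 1.42.0 and limma 3.58.1. The fits were tested on simulated data. Same-numbered libraries of 0.25 and 0.5 µM deviated together (r of the deviations from the group means of 0.266, 0.268 and 0.579), and in the other pairs of groups r was 0.0918 or lower; the labels give the numbers and do not say what they share. Levels per kilobase used the union of exons in GENCODE 44. Members and lists were chosen with earlier results of these data known. The genes named were the 8 members, the extremes of each list at 1 µM and the direct partners or nearest relatives of members. For each member averaging 1 CPM or more, the 2 genes averaging 10 CPM or more with the highest r over the libraries were to be named; DMTN, HEMGN and the other markers named were chosen after their values were seen. Some listed genes are not reported by name here. Library depth limits AHSP and EPB42.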

Additional observations from a re-analysis of the deposited data

How the results depend on the processing

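Over 28 alternatives, 64 member results gave 1698 values, of which 1646 kept their direction and side of the threshold (59 changed sign between values called in neither), 13 lost the call, 34 gained one and 5 reversed: GYPE at 0.25 µM was 0.53 by library totals and 0.36 by limma on log2(FPKM + 1), both called higher, and RHAG at 0.25 µM was 0.03 by library totals and 0.00 by limma with either pseudocount, not called. The cause was not tested. Genes called lower at 0.15 µM (1) numbered 2 with no filter, with only the libraries compared, by DESeq2, by limma on log2(FPKM + 1) and without replicate 3 at both 0.25 and 0.5 µM (a choice made after seeing the data), and 1 to 2 leaving out single libraries. Those called higher at 0.15 µM (1) numbered 3 by library totals, 3 by TMM factors taken from genes above 10 CPM, 2 with at least 10 counts in every library, 2 with only the libraries compared, 4 and 3 by limma on log2(FPKM + 1) and log2(FPKM + 0.1) and 2 without replicate 3 at both doses, and 1 to 2 leaving out single libraries. Of all 23711 genes, 9582 were higher there by library totals and 9074 by those TMM factors, against 7557 in the main fit. By limma they numbered 4319 and 5326 of 21527. At 0.25 µM, those lower (4) numbered 2 by library totals, with the stricter filter and by limma on log2(FPKM + 0.1), and those higher (1) numbered 2 by library totals and by limma on log2(FPKM + 1). Of all 23711 genes, library totals gave 3067 lower and 11697 higher at that dose, against 5888 and 8873 in the main fit. At 1 µM, those higher (0) numbered 1 by library totals, those TMM factors, the stricter filter, DESeq2 and limma on log2(FPKM + 0.1), in each case SLC4A1. Of all 23711 genes, 10808, 11102 and 9727 were higher there by library totals, those TMM factors and DESeq2, against 9193 in the main fit. From 0.15 to 0.25 µM, those lower (2) numbered 5 without replicate 3 at both doses, where 2124 of all 24200 genes tested were lower. With the replicate block, 6 members were lower at 1 µM and from 0.25 to 0.5 µM, also with those libraries alone, and no member's call changed. AHSP and EPB42 could not be tested with at least 10 counts in every library, nor EPB42 on FPKM. Depth limits both: AHSP had 4 and 6 counts in all at 0.5 and 1 µM.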
